A study of Mus musculus with 4 samples.

Results

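The genes described here encode the proteins of the mitochondrial ribosome. They were taken as every gene whose symbol begins with Mrpl or Mrps followed by a digit, which gave 46 of the 4878 genes measured. Of these, 29 carried Mrpl symbols, for the large ribosomal subunit, and 17 carried Mrps symbols, for the small subunit. GENCODE M21 annotates 78 coding genes that match the same pattern, and the other 32 were not analysed here. They were measured in mouse embryonic fibroblasts, primary cells cultured from embryos, at passages 5 to 8. One group of 2 libraries came from cells transfected with siRNA, a short RNA that silences its target gene, against eIF1A, labelled Si-eIF1A (X+18), and the other group of 2 libraries from cells transfected with a negative control siRNA, both with Lipofectamine RNAimax. eIF1A is the translation initiation factor that helps the cytosolic small ribosomal subunit scan an mRNA for its start codon. The sources used here do not give the strain, the age of the embryos or the time after transfection, and the labels name a single siRNA treatment against eIF1A.

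Mitochondria carry their own ribosomes, which translate the few proteins encoded by mitochondrial DNA, all of them parts of the respiratory chain and ATP synthase. The ribosomal RNAs of these particles come from mitochondrial DNA, but in mammals every protein is encoded in the nucleus, translated by cytosolic ribosomes and imported. Some of these proteins descend from bacterial ribosomal proteins, and others exist only in mitochondrial ribosomes. As in bacteria, the small subunit holds the mRNA, while the large subunit joins the amino acids and lets the new chain out through its exit tunnel.

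The libraries were made by bulk MARS-seq, which reads the 3′ ends of polyadenylated RNA. They held between 2152331 and 2595625 reads over the genes of the table. The tested members had a median of 344 and 280 reads in the 2 knockdown libraries, against 152 and 209 in the 2 control libraries. Values below are the deposited normalised counts. Eif1a and Eif1ax, which encode the targeted factor, were not analysed here, so the depth of the knockdown was not checked. Whether replicate libraries stem from separate cultures is not stated by the labels. The p-values therefore reflect only the spread among these 4 libraries, which may be technical. Standard errors and p-values of the limma fit used below rest partly on the spread of all genes tested, not on that of each gene alone. In bulk RNA, fewer cells with an mRNA and less of it per cell cannot be told apart. Of 13 fibroblast markers 3 were in the table, summing to 9879 and 12562 normalised counts in knockdown libraries, against 23010 and 17548 in control libraries. Most of that sum was Vim, with 8437 and 10504 in knockdown libraries, against 20136 and 15531 in control libraries. Fn1 overlapped between the groups (1338 and 1957 in knockdown libraries, against 2194 and 1328 in control libraries), and S100a4 had 104 and 101 in knockdown libraries, against 680 and 689 in control libraries. Of 4 neural markers Nes and Map2 were in the table, summing to 132 and 151 in knockdown libraries, against 238 and 245 in control libraries. The markers listed for macrophages, epithelium, endothelium and skeletal muscle were not analysed here, and the part of these differences in the results was not tested.

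The promoters of the 3 members with the largest rises and of the single member that fell are shown first, since genes of this family that moved apart can be compared by the bases around their starts. Each run spans 120 bases before and 30 bases from the annotated start, 5′ to 3′ on the strand of the gene, from the RefSeq promoter table of build GRCm38.p6. Capitals mark matches to the motifs of NRF1 (GCGCANGCG) and of the ETS family, which includes GABPA (CCGGAAG), both transcription factors known in mammals for nuclear genes of mitochondrial proteins. Mrps22 lies on the minus strand (chr9:98601650-98601799), and Mrpl33 (chr5:31613831-31613980), Mrpl22 (chr11:58171544-58171693) and Mrpl14 (chr17:45686229-45686378) lie on the plus strand.
Mrps22: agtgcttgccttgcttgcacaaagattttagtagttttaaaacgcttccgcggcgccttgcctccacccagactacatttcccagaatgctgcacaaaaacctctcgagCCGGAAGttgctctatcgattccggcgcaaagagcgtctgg
Mrpl33: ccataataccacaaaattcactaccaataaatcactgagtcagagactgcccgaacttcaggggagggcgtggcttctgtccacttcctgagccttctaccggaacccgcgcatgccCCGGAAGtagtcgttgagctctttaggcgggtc
Mrpl22: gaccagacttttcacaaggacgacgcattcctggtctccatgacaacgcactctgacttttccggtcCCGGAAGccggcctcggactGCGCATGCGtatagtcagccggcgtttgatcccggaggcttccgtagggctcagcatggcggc
Mrpl14: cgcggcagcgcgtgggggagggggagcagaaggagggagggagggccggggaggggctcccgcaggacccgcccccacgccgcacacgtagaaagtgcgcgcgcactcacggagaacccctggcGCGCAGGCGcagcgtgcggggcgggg

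In these windows the ETS match began 11 bases before the start of Mrps22, 3 bases before that of Mrpl33 and 53 bases before that of Mrpl22. The NRF1 match began 33 bases before the start of Mrpl22, and at base 5 after the start of Mrpl14. These are the starts used by the promoter table, which for Mrps22 and Mrpl33 are the outer ends of the RefSeq genes. Those of Mrpl22 and Mrpl14 lie 1621 and 627 bases inside the outer ends of the RefSeq genes, and promoters at the outer ends were not examined. The windows were 51.3% GC for Mrps22, 54% for Mrpl33 and 60.7% for Mrpl22, and 78% for Mrpl14. Over the full table windows, 250 bases before to 50 after the start, 41 of the 46 members had an entry. Motifs were sought on both strands, and an NRF1 match on one strand may overlap a match on the other. An ETS match was found in 15 of the 41 members (36.6%), in 22.1% of the 3725 tested genes with an entry and in 9.12% of all 27025 promoters. An NRF1 match was found in 10 members (24.4%), against 17.2% of tested genes and 6.47% of all promoters. YY1, another factor of mitochondrial gene promoters, had its motif (AAGATGGCG) in 6 members (14.6%), against 4% of tested genes and 1.5% of all promoters. The E-box bound by MYC (CACGTG) was found in 4 members (9.76%), against 11.8% of tested genes and 7.24% of all promoters. The C/EBP-ATF motif (TGATGCAA) was found in 0 of the 41 members, against 0.617% of tested genes and 0.929% of all promoters. Among the 17 members that rose, 9 held the ETS motif, 4 the NRF1 motif, 3 the YY1 motif and 3 the E-box. A match is a stretch of letters and was not tested as a binding site.

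Most mitochondrial ribosomal protein mRNAs stood higher in eIF1A knockdown cells than in control cells. Of the 45 members with enough reads to test, 17 rose (37.8%) and 1, Mrpl14, fell (limma with Benjamini-Hochberg adjustment over all 4605 genes tested, adjusted p under 0.05). Over all genes tested, 15.9% were called higher and 21.6% were called lower. The median log2 fold change, knockdown over control, was 0.58 for the members, against −0.01 for all genes, and 38 of 45 members lay above 0. Fold changes here and below are on the scale of log2(normalised count + 1). In 30 members both knockdown libraries lay above both control libraries, a pattern seen in 32.4% of all genes tested. In 3 members, Mrpl14, Mrpl28 and Mrpl49, both knockdown libraries lay below both controls, against 35.5% of all genes tested, and in the other 12 the groups overlapped.

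The count of rises rested in part on single libraries and on the scaling. Without knockdown library 1, 5 members were called higher (10.7% of all genes), namely Mrpl33, Mrps7, Mrps10, Mrps22 and Mrps26, and without control library 1 there were 11 (14.9% of all genes). With no mean-variance trend in limma 5 were called higher (10.9% of all genes), Mrpl33, Mrps7, Mrps10, Mrps22 and Mrpl1, and the other 13 of the 17 rises had adjusted p from 0.0501 to 0.16 there. With every library scaled to the same total 29 were called higher (28.2% of all genes).

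**Figure D1:**
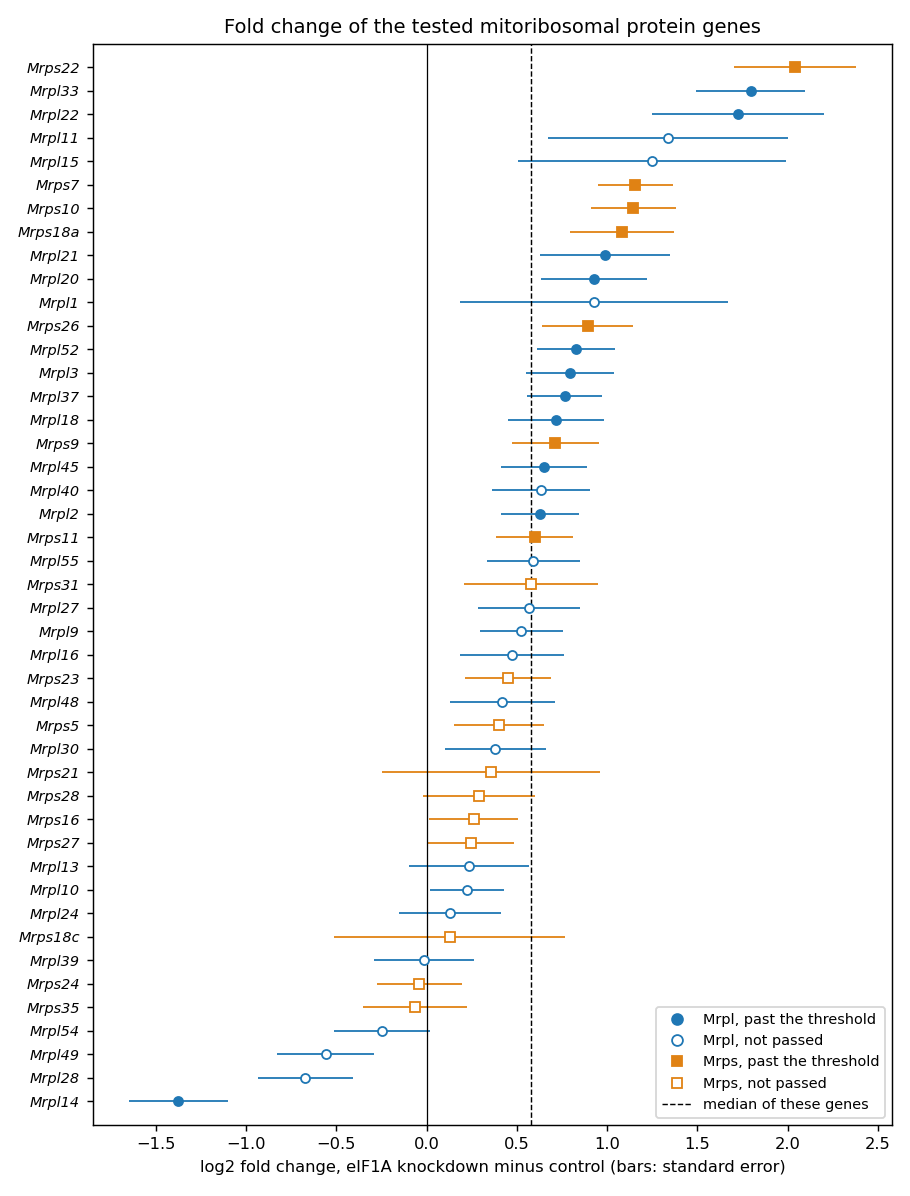
Log2 fold change of normalised counts, knockdown minus control, for the 45 tested members, ordered from highest to lowest, with bars for the standard error, circles for Mrpl, squares for Mrps and filled points for adjusted p under 0.05. Most points lie right of 0 around the dashed median of 0.58, and Mrpl14 at −1.38 is the single filled point on the left.

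In the core of the large subunit, Mrpl22, Mrpl3 and Mrpl2 rose. Mrpl22 encodes a protein that lines the exit tunnel in bacterial and mitochondrial ribosomes. It had 77.5 and 27.8 normalised counts in knockdown libraries, against 15.7 and 11.4 in control libraries. Both knockdown values were higher than both controls, and knockdown library 1 stood far above library 2. The log2 fold change was 1.73 ± 0.48 (SE, n = 2 libraries per group, limma adjusted p = 0.00764), and without knockdown library 1 it was 1.00 (adjusted p = 0.285). Mrpl3, whose bacterial counterpart reaches towards the peptidyl transferase centre, had 278 and 242 in knockdown libraries, against 132 and 169 in control libraries (log2 fold change 0.79 ± 0.24, limma adjusted p = 0.0143). Mrpl2, also close to that centre in bacteria, had 2156 and 1649 in knockdown libraries, against 1282 and 1158 in control libraries (0.63 ± 0.22, limma adjusted p = 0.0292). The groups of neither gene overlapped. The call of Mrpl3 was lost without knockdown library 1 (limma adjusted p = 0.12) and without control library 1 (0.0729), and with the GC trend removed its log2 fold change was 0.39 (0.243). That of Mrpl2 was lost without knockdown library 1 (0.266) and without control library 2 (0.091).

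Among the other large-subunit proteins with a bacterial homolog, Mrpl33, Mrpl21, Mrpl20 and Mrpl18 rose. Mrpl33 (chr5:31613951-31622644, plus strand) had 135 and 111 normalised counts in knockdown libraries, against 33.5 and 35.7 in control libraries. The libraries of each group lay close together and the groups were far apart. Its log2 fold change was 1.80 ± 0.30 (SE, limma adjusted p = 1.35e-04), a 3.47-fold difference. Mrpl21 had 68.6 and 57.1 in knockdown libraries, against 23.6 and 40.6 in control libraries (log2 fold change 0.99 ± 0.36, limma adjusted p = 0.0371). Mrpl20, whose bacterial homolog is needed early in assembly of the large subunit, had 979 and 619 in knockdown libraries, against 278 and 601 in control libraries (0.93 ± 0.29, limma adjusted p = 0.0183). The lower knockdown value and the higher control value of Mrpl20 were nearly equal. Mrpl18, a homolog of a bacterial protein that binds ribosomal RNA of the central protuberance, had 296 and 190 in knockdown libraries, against 125 and 166 in control libraries (0.72 ± 0.26, limma adjusted p = 0.0401). Without knockdown library 1 the limma adjusted p was 0.212 for Mrpl21, 0.129 for Mrpl20 and 0.434 for Mrpl18. Without control library 1 it was 0.235 for Mrpl21, 0.28 for Mrpl20 and 0.154 for Mrpl18, and without knockdown library 2 it was 0.0809 for Mrpl21. The log2 fold change of Mrpl20 was 0.37 without control library 1, that of Mrpl21 was 0.61 without control library 1, and that of Mrpl18 was 0.40 without knockdown library 1. The call of Mrpl18 was also lost with the GC trend removed (limma adjusted p = 0.117), with a replicate block (0.0546) and in DESeq2 (0.0552). That of Mrpl21 was also lost with quantile normalisation (limma adjusted p = 0.101), with a replicate block (0.0581) and in DESeq2 (0.0786).

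Among the large-subunit proteins found only in mitochondrial ribosomes, Mrpl52, Mrpl37 and Mrpl45 rose. Mrpl52 had 1335 and 986 normalised counts in knockdown libraries, against 629 and 663 in control libraries (log2 fold change 0.83 ± 0.22, SE, limma adjusted p = 0.00553). Mrpl37 had 1004 and 907 in knockdown libraries, against 564 and 558 in control libraries (0.76 ± 0.21, limma adjusted p = 0.00688). Mrpl45, which in mammalian structures lies near the tunnel exit and tethers the ribosome to the inner membrane, had 305 and 242 in knockdown libraries, against 188 and 158 in control libraries (0.65 ± 0.24, limma adjusted p = 0.0381). None of these 3 genes had overlapping groups, and the control libraries of Mrpl52 and Mrpl37 lay close together. Without knockdown library 1 the limma adjusted p was 0.106 for Mrpl52, 0.0642 for Mrpl37 and 0.301 for Mrpl45. The call of Mrpl45 was also lost without control library 2 (0.119), without knockdown library 2 (0.0573), with the GC trend removed (0.0989) and with a replicate block (0.0529).

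In the small subunit, Mrps7, Mrps10 and Mrps9, whose proteins belong to the head of the subunit, rose, as did Mrps11, a platform protein. Mrps7 (chr11:115604140-115608036, plus strand), a homolog of the bacterial protein that organises the ribosomal RNA of the head, had 1915 and 1646 normalised counts in knockdown libraries, against 795 and 796 in control libraries. The control libraries were almost equal and both knockdown libraries were more than 2-fold higher. Its log2 fold change was 1.16 ± 0.21 (SE, limma adjusted p = 2.62e-04). Exons of Mif4gd lie on the opposite strand within the last 1000 bases of Mrps7, and since the sources used here do not give whether counting used strand, its reads cannot be told apart from reads of that gene. Mrps10 (chr17:47368887-47381418, plus strand) had 333 and 302 in knockdown libraries, against 160 and 127 in control libraries (log2 fold change 1.15 ± 0.24, limma adjusted p = 8.85e-04). Mrps9 had 304 and 281 in knockdown libraries, against 150 and 211 in control libraries (0.71 ± 0.24, limma adjusted p = 0.0263). Mrps11 had 929 and 807 in knockdown libraries, against 528 and 618 in control libraries (0.60 ± 0.21, limma adjusted p = 0.0327). The groups did not overlap in any of these 4 genes. The call of Mrps9 was lost without knockdown library 1 (limma adjusted p = 0.134), knockdown library 2 (0.0761) or control library 1 (0.181), and with the GC trend removed (0.0929). That of Mrps11 was lost without the same libraries (0.21 without knockdown library 1, 0.0669 without knockdown library 2 and 0.14 without control library 1).

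Mrps22 had the largest fold change of the 45 tested members. It encodes a small-subunit protein that exists only in mitochondrial ribosomes, and variants of the human gene are known to cause mitochondrial disease. Mrps22 (chr9:98588730-98601679, minus strand) had 120 and 113 normalised counts in knockdown libraries, against 20.7 and 36.5 in control libraries. The knockdown libraries were nearly equal and lay well above both controls. Its log2 fold change was 2.04 ± 0.34 (SE, limma adjusted p = 1.09e-04), a 4.12-fold difference. Mrps26, another small-subunit protein found only in mitochondria, had 759 and 747 in knockdown libraries, against 298 and 549 in control libraries (0.89 ± 0.25, limma adjusted p = 0.00893), and its call was lost without control library 1 (log2 fold change 0.45, limma adjusted p = 0.169) and after GC trend removal (0.70, limma adjusted p = 0.0768). Calls of Mrps22, Mrpl33, Mrps10 and Mrps7 were kept in all 18 alternative settings, and no other of the 18 calls was. Among these settings, adjusted p under 0.1 and an added cutoff of 1.5-fold reuse the main fit. All 18 calls pass both by their main values, so these settings could remove none.

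Mrps18a carries a small-subunit symbol, but in structures of mammalian mitochondrial ribosomes its protein, mL66, sits in the large subunit. It had 1263 and 724 normalised counts in knockdown libraries, against 324 and 627 in control libraries (log2 fold change 1.08 ± 0.29, SE, limma adjusted p = 0.00595). The spread within each group was wide, and the groups came close without overlapping. The call was lost without knockdown library 1 (log2 fold change 0.68, limma adjusted p = 0.073) and without control library 1 (0.61, limma adjusted p = 0.0614). Its relative in the small subunit, Mrps18c, had 12.9 and 6.79 in knockdown libraries, against 5.91 and 12.2 in control libraries, with overlapping groups (log2 fold change 0.13 ± 0.64, limma adjusted p = 0.901).

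**Figure D2:**
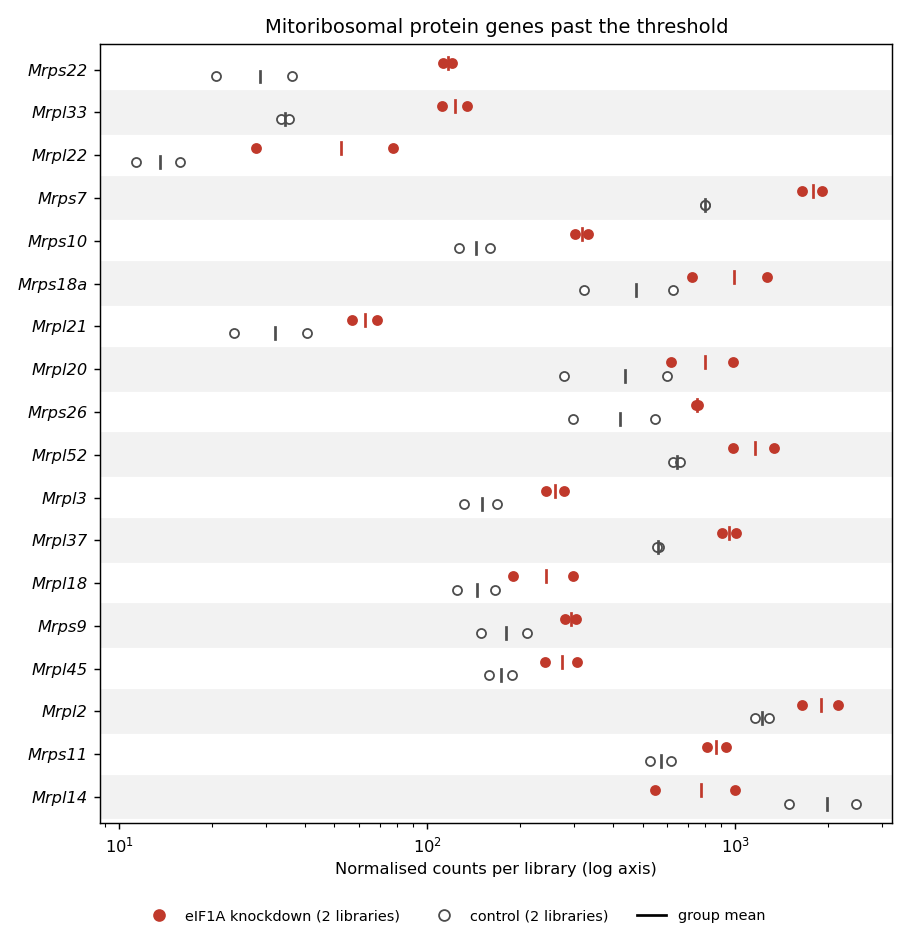
Normalised counts per library on a log axis for the 18 members past the threshold, with filled points for the 2 knockdown libraries, open points for the 2 control libraries and vertical marks for group means. In 17 members both filled points lie right of both open points, and in Mrpl14 both lie left of them.

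Mrpl14 moved against the rest of the family. In bacteria and mitochondria its protein, uL14m, lies on the face of the large subunit that meets the small subunit. Mrpl14 (chr17:45685722-45698495, plus strand) had 1001 and 549 normalised counts in knockdown libraries, against 1498 and 2472 in control libraries. Both knockdown libraries were below both controls, with wide spread within each group. The log2 fold change was −1.38 ± 0.27 (SE, limma adjusted p = 6.57e-04), a level 2.59-fold higher in control cells. The call was lost in limma without the mean-variance trend (adjusted p = 0.0518) and after removal of the trend on GC content (log2 fold change −0.72, limma adjusted p = 0.107). It was kept without each library in turn, with log2 fold changes from −1.81 to −0.94. Of the 6 members on chromosome 17, Mrpl14 is followed on the plus strand by Mrps18a (chr17:46111004-46128908), Mrpl2 (chr17:46646172-46650132) and Mrps10, all 3 of which rose.

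Mrpl28 and Mrpl49 also had both knockdown libraries below both controls, but neither passed the threshold. Mrpl28, a large-subunit protein with a bacterial homolog, had 1769 and 902 normalised counts in knockdown libraries, against 1851 and 2190 in control libraries. Knockdown library 1 lay close to the controls and library 2 far below them (log2 fold change −0.67 ± 0.26, SE, limma adjusted p = 0.0508). Without knockdown library 1 Mrpl28 was called lower (−1.16, limma adjusted p = 5.30e-04), and without control library 1 likewise (−0.79, limma adjusted p = 0.0186), whereas without knockdown library 2 the log2 fold change was −0.19. With the GC trend removed it was −0.10 (limma adjusted p = 0.829). Mrpl49, found only in mitochondrial ribosomes, had 127 and 90.3 in knockdown libraries, against 143 and 175 in control libraries (−0.56 ± 0.27, limma adjusted p = 0.109). Exons of Syvn1 lie on the opposite strand in the last 1000 bases of Mrpl49, so its reads are uncertain. Mrpl54, another protein found only in mitochondrial ribosomes, had 2025 and 1190 in knockdown libraries, against 1450 and 2346 in control libraries, with overlapping groups (−0.25 ± 0.27, limma adjusted p = 0.502). Mrps24, which forms part of the mRNA entry site, had 903 and 653 in knockdown libraries, against 653 and 955 in control libraries (−0.04 ± 0.24, limma adjusted p = 0.915). The log2 fold changes of Mrps35 (−0.06 ± 0.29) and Mrpl39 (−0.01 ± 0.28) were the other ones below 0, and both had overlapping groups. With every library scaled to the same total, the log2 fold change of Mrpl54 turned to 0.10 and that of Mrps24 to 0.31, while those of Mrpl14, Mrpl28 and Mrpl49 stayed below 0. With the GC trend removed Mrpl54 stood at 0.48 and Mrps24 at 0.29.

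The 27 tested members that did not pass had log2 fold changes from −0.67 to 1.34. In 13 of them both knockdown libraries were above both controls. Closest to the threshold on the high side were Mrpl40, with 207 and 139 normalised counts in knockdown libraries, against 95.5 and 124 in control libraries (0.63 ± 0.27, limma adjusted p = 0.0745), Mrpl9 (0.53 ± 0.23, limma adjusted p = 0.078) and Mrpl55 (0.59 ± 0.26, limma adjusted p = 0.0794). Mrpl10, which holds the stalk proteins on the large subunit, had 1014 and 983 in knockdown libraries, against 866 and 844 in control libraries. Its groups did not overlap and the step between them was small (0.22 ± 0.21, limma adjusted p = 0.425). Exons of Gm11574 lie opposite the end of Mrpl10, and those of Rrnad1 opposite the end of Mrpl24, whose groups overlapped (0.13 ± 0.28). Mrpl48 had 84 and 82.2 in knockdown libraries, against 62 and 61.7 in control libraries (0.42 ± 0.29, limma adjusted p = 0.278), and a pseudogene, Mrpl48-ps, is annotated.

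The 3 members with fewer than 4 reads in a library were all of the large subunit. Mrpl11, the counterpart of a bacterial protein at the stalk base, had 17.8 and 16.3 normalised counts in knockdown libraries, against 13.8 and 2.43 in control libraries. The ratio of its summed reads scaled to the libraries, knockdown over control, was 2.24 (95% counting interval 1.26 to 4.18), with 46 reads in knockdown and 17 in control libraries. Mrpl15 had 12.9 and 9.51 in knockdown libraries, against 8.86 and 1.62 in control libraries, a ratio of 2.26 (1.10 to 5.00). Mrpl35 had 6.46 and 6.11 in knockdown libraries, against 0.984 and 2.43 in control libraries, a mean under the minimum of 5 set for the test, and a ratio of 3.52 (1.15 to 14.4). In each of these genes both knockdown libraries were the higher, and 1 or both control libraries held 1 to 3 reads. The intervals cover counting error only. Mrpl1, outside that rule, also had few reads, with 9 and 12 in knockdown libraries and 4 in each control library. It had 7.27 and 8.15 normalised counts in knockdown libraries, against 3.94 and 3.25 in control libraries (log2 fold change 0.93 ± 0.74, limma adjusted p = 0.355). Mrpl11 and Mrpl15 were called higher in limma without control library 1 (adjusted p = 0.00375 and 0.0211), the control library with more of their reads, and did not pass with it (0.124 and 0.202). Without control library 2 the log2 fold change was 0.29 for each of these 2 genes (limma adjusted p = 0.738 and 0.771), against 1.34 for Mrpl11 and 1.25 for Mrpl15 with all libraries.

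The contrast of the subunits depended on how it was read. By symbol, 10 of 28 large-subunit members rose and 1 fell, and 7 of 17 small-subunit members rose and 0 fell. Among all genes tested 15.9% were called higher and 21.6% lower. By limma, edgeR and DESeq2 alike, 0 small-subunit members were called lower, and 0 were lower at an unadjusted p under 0.05. The median log2 fold change was 0.61 for Mrpl genes and 0.45 for Mrps genes, a difference, Mrps minus Mrpl, of −0.16. With Mrps18a counted in the large subunit the medians were 0.63 for the large and 0.43 for the small subunit. Without control library 2 the difference turned to 0.16, without knockdown library 1 it was 0.05, and with the GC trend removed it was 0.04. The log2 fold changes reached from −1.38 to 1.80 in the large subunit and from −0.06 to 2.04 in the small subunit. Of the 28 Mrpl genes 20 had both knockdown libraries above both controls, 3 had both below and 5 overlapped. Of the 17 Mrps genes 10 were above, 0 below and 7 overlapped. Across all genes tested, both knockdown libraries lay above both controls in 32.4% and below them in 35.5%.

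Summed over genes, the small subunit took a larger part in knockdown libraries. Normalised counts of the Mrpl genes summed to 14701 and 10328 in knockdown libraries, against 10275 and 13074 in control libraries, with overlapping groups. Those of the Mrps genes summed to 8358 and 6507 in knockdown libraries, against 4046 and 5268 in control libraries, with no overlap. The ratio of the Mrps sum to the Mrpl sum was 0.569 and 0.630 in knockdown libraries, against 0.394 and 0.403 in control libraries. With Mrps18a counted in the large subunit the gap was smaller, with 0.444 and 0.523 in knockdown libraries, against 0.351 and 0.339 in control libraries. Leaving out Mrpl genes chosen for fold changes below 0 narrows the gap by construction, and the values serve only as a description. Without Mrpl14 the ratio by symbol was 0.610 and 0.665 in knockdown libraries, against 0.461 and 0.497 in control libraries. Without Mrpl14, Mrpl28 and Mrpl49 it was 0.708 and 0.741, against 0.596 and 0.640 in control libraries, still with no overlap. With the abundant Mrpl54 left out as well it was 0.855 and 0.857 in knockdown libraries, against 0.759 and 0.894 in control libraries, so that the groups overlapped. Without Mrps7, the member of highest level in the small subunit, it was 0.438 and 0.471 in knockdown libraries, against 0.316 and 0.342 in control libraries.

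Split by standard protein name, of the 30 tested members named for a bacterial homolog 11 rose and 1 fell (median log2 fold change 0.58). Of the 15 named as specific to mitochondria 6 rose and 0 fell (median 0.58). Mrps18a, which rose, is among the 15 by its name mL66, although its relative Mrps18c is named for a bacterial homolog. Split by level, 12 of the 23 members at or above the median level rose and 1 fell (median 0.60), and of the 22 below it 5 rose and 0 fell (median 0.52), with 15.9% of all genes called higher. The differences between these groups of members were not tested, and genes with more reads pass the test more readily.

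The members moved together within groups as well as between them. Each value was set against the gene's mean over the 4 libraries on the log2 scale. The median of these deviations was 0.48 and 0.13 in knockdown libraries 1 and 2, against −0.36 and −0.12 in control libraries 1 and 2, while for all genes tested it lay between −0.03 and 0.06. Knockdown library 1 was thus the highest and control library 1 the lowest. Of 45 members 43 and 29 were above their own mean in the knockdown libraries, against 6 and 15 in the control libraries. Knockdown library 1 exceeded knockdown library 2 in 41 of 45 members (91.1%), against 47.6% of all genes, with a median log2 ratio of 0.41, against −0.03 for all genes. Control library 2 exceeded control library 1 in 33 of 45 members (73.3%), against 43.1% of all genes, with a median log2 ratio of 0.31, against −0.08. The members took 1.33% and 1.05% of the reads in knockdown libraries, against 0.667% and 0.871% in control libraries. The distance within the knockdown group, 0.41, was thus of the order of the median difference between groups, 0.58, and what sets the libraries of a group apart was not tested.

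**Figure D3:**
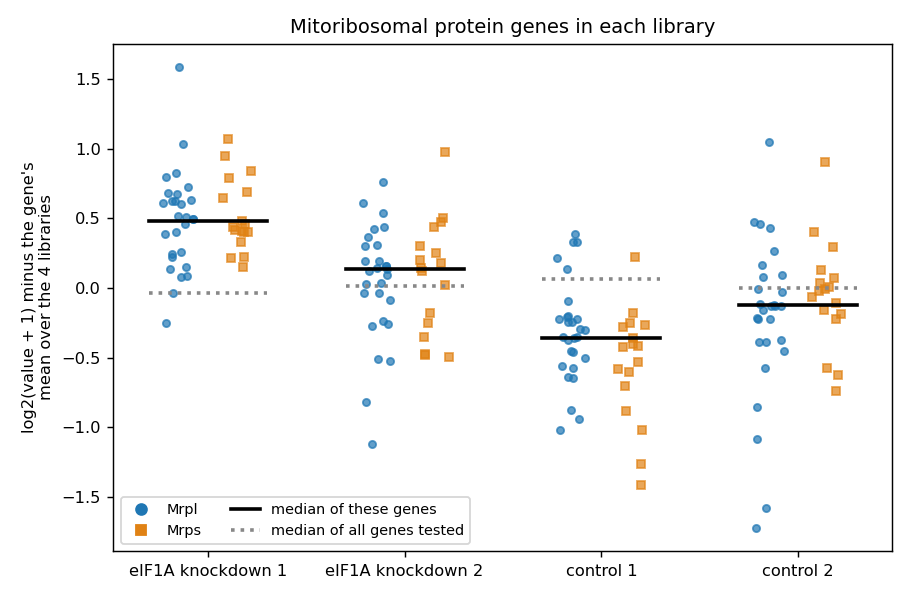
Deviation of each tested member from its own mean over the 4 libraries, in log2 units, by library, with circles for Mrpl, squares for Mrps, black lines for the members' median and dotted lines for the median of all genes tested. The members' median is 0.48 in knockdown library 1, 0.13 in knockdown library 2, −0.36 in control library 1 and −0.12 in control library 2, with the all-gene median near 0 throughout.

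Fold change went with the GC content of the transcript in these libraries, and 3 of the 4 Mrpl genes with the lowest fold changes were rich in GC. Across all 4600 tested genes with a GC value, Spearman's rho of GC with log2 fold change was −0.45, and across the 45 members it was −0.14. These are correlations across genes that share the same 4 libraries. Of the 45 members Mrpl54 (60.4% GC), Mrpl14 (59.4%) and Mrpl28 (58.2%) had the highest GC contents, and Mrpl49 (49.4%) ranked 28th. The next highest, Mrpl2 (57.5%) and Mrpl52 (57.5%), both rose. The members' median GC content was 50.1%, against 51.4% for all genes tested. With the GC trend removed 13 members were called higher, against 15.1% of all genes, 0 were called lower, against 13.9% of all genes, and their median log2 fold change was 0.53. Of the 17 rises 12 were kept in that setting. By limma in that setting 2 members were lower at an unadjusted p under 0.05, and edgeR and DESeq2, without GC removal, each called 1 lower. The members' transcripts were shorter, with a median of 1280 bases, against 3088.5 for all genes tested. The part of GC content in the change of any member was not tested beyond that removal.

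**Figure D4:**
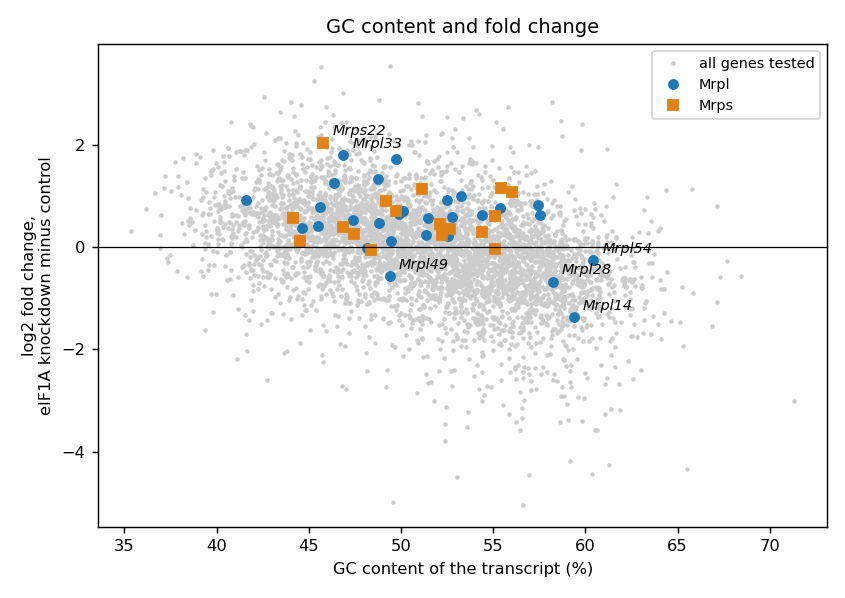
Log2 fold change, knockdown minus control, against GC content of the transcript in percent, for all tested genes (grey), Mrpl (circles) and Mrps (squares). Mrpl54, Mrpl14 and Mrpl28 stand at the GC-rich end, at 60.4%, 59.4% and 58.2%, and below 0, whereas Mrpl49 lies below 0 at 49.4%.

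Genes that work with the mitochondrial ribosome were listed by function, to be read beside 15.9% of all genes tested called higher and 21.6% called lower. Of 7 ribosomal proteins with other symbols 4 were in the table, and Chchd1, a small-subunit protein, rose, with 88.8 and 63.2 normalised counts in knockdown libraries, against 20.7 and 41.4 in control libraries (log2 fold change 1.32, limma adjusted p = 0.00887). The other 3, Aurkaip1 (0.60), Gadd45gip1 (0.81) and Ict1 (−0.13), did not pass. Of 30 assembly factors 4 were in the table and 3 were tested, and 2 rose. Noa1, a GTPase of small-subunit assembly, had 243 and 262 in knockdown libraries, against 104 and 96.6 in control libraries (1.32, limma adjusted p = 3.11e-04), and Dhx30, an RNA helicase of mitochondrial RNA granules, had 312 and 445, against 244 and 234 in control libraries (0.64, limma adjusted p = 0.0382). Of 21 translation factors 7 were in the table, and 2 rose. Lrpprc, which stabilises mitochondrial mRNAs, had 98.5 and 141 in knockdown libraries, against 27.6 and 34.9 in control libraries (1.89, limma adjusted p = 1.44e-04), and Gfm1, a mitochondrial elongation factor, had 150 and 120, against 67.9 and 69.8 in control libraries (0.95, limma adjusted p = 0.01). Both knockdown libraries were above both controls in each of these 5 genes.

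Of 19 mitochondrial tRNA synthetases 7 were in the table, and Tars2 (log2 fold change 1.37, limma adjusted p = 8.62e-05) and Gars (1.19, limma adjusted p = 1.74e-04), which also serves the cytosol, rose. Of 15 factors of mitochondrial transcription and DNA maintenance 3 were in the table, and 0 passed in limma, edgeR or DESeq2. Ssbp1, which binds single-stranded mitochondrial DNA, was the single one of these at an unadjusted p under 0.05 in limma, with 13.7 and 19.7 normalised counts in knockdown libraries, against 3.94 and 8.93 in control libraries (1.32, limma adjusted p = 0.0958). Of 15 genes listed as regulators of mitochondrial biogenesis 7 were in the table, and Atf4 (2.68), Myc (2.52), Pprc1 (0.87) and Nrf1 (0.74) rose. Whether these genes, Atf4 among them, act on mitochondrial biogenesis in these cells was not tested. Atf4 had 3959.5 and 3431.7 in knockdown libraries, against 516.7 and 642 in control libraries (limma adjusted p = 3.36e-08). Myc had 119 and 259, against 29.53 and 30.03 in control libraries (limma adjusted p = 1.40e-05). Pprc1 had 147 and 128, against 73.8 and 75.5 in control libraries (limma adjusted p = 0.0158). Nrf1 had 224 and 217 in knockdown libraries, against 120 and 144 in control libraries (limma adjusted p = 0.0214). Gabpa, a subunit of the ETS factor, had 5.65 and 4.75 in knockdown libraries, against 3.94 and 12.2 in control libraries, with overlapping groups (−0.38, limma adjusted p = 0.726). None of the tested genes on these 6 lists was called lower by limma, edgeR or DESeq2, and 0 were lower at an unadjusted p under 0.05 in limma.

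By median, the members lay nearer to the cytosolic ribosomal proteins than to the respiratory chain. Of 20 cytosolic ribosomal protein genes 11 rose and 0 fell (median log2 fold change 0.92). Of 47 nuclear genes of oxidative phosphorylation, the machinery to which the products of mitochondrial translation belong, 4 rose and 5 fell (median −0.02). The shares over all genes tested were 15.9% called higher and 21.6% called lower. Both groups were taken by symbol from the genes measured, and other genes of these machineries were not analysed here. The differences between these groups of genes were not tested.

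**Figure D5:**
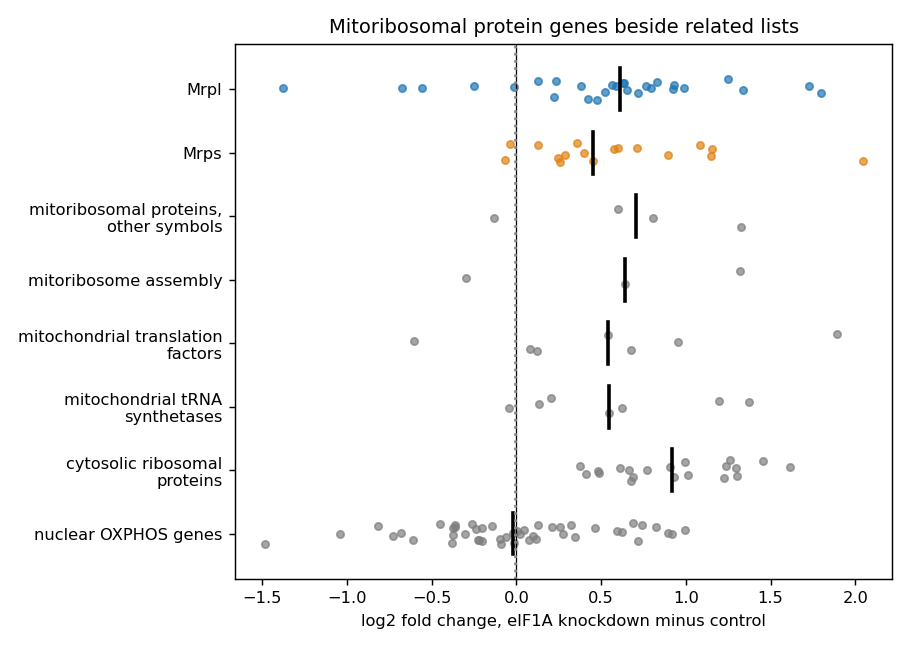
Log2 fold change, knockdown minus control, of each tested gene (points) of the Mrpl and Mrps groups and 6 related gene groups, with vertical bars for group medians and a dotted line for the median of all genes tested. The medians are 0.61 for Mrpl and 0.45 for Mrps, 0.92 for cytosolic ribosomal proteins and −0.02 for nuclear genes of oxidative phosphorylation.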

How the data were processed

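RNA of 4 libraries of mouse embryonic fibroblasts, 2 with eIF1A knockdown and 2 controls, was measured by bulk MARS-seq, per the labels' protocols. Groups and replicate numbers came from the sample titles. STAR, HTSeq, DESeq2, bcl2fastq 2.17.1.14, cutadapt 1.8.3 and the build mm10 appear in the submitters' processing notes, with no order. The deposited values are a signal, normalised counts by the authors; the sources used here do not give their size factors, the use of strand and of molecular identifiers in counting, or how the 4878 genes of the table were chosen. Within each library all values were whole multiples of 1 step (100% within 0.01 read), so reads were recovered. Every gene of the table had at least 1 read in all 4 libraries, so genes with none in a library are not covered.

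From these values log2(value + 1) was taken and fitted with no block, using limma 3.58.1 (R 4.3.3) with its mean-variance trend. It draws each gene's variance towards that of genes of like level, so standard errors are not a gene's own spread alone. The test covered the 4605 genes with a mean of at least 5 and left out 273, with Benjamini-Hochberg adjustment over all tested genes at 0.05. The number of libraries, 2 per group, limits the precision, and counting intervals are exact (Clopper-Pearson, 95%). Named genes were members past the threshold, members against the family's median whose groups did not overlap, the 3 of highest level per subunit, members with fewer than 4 reads in a library, and up to 4 genes past the threshold of each related list. Genes named beyond this rule, such as Mrps35, Mrpl39, Mrps18c, Mrpl10 and Mrpl48, were chosen after their values were seen. The members and lists were chosen with earlier results of these data known. Symbols of 4873 genes matched GENCODE M21, 132 of them through older symbols. Promoters and printed coordinates are from RefSeq on GRCm38.p6, and the starts used to find neighbouring genes are from GENCODE M21. Same-numbered libraries were not paired, since the labels do not say that a replicate number marks a shared culture or day. Deviations of same-numbered libraries correlated at −0.129.

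The alternatives were other pseudocounts and filters, TMM, equal totals, quantile normalisation, a replicate block, no trend, GC trend removal by loess (span 0.5), each library left out, other thresholds, the subunit by structure, and edgeR 4.0.16 and DESeq2 1.42.0 on recovered reads. A replicate block with crossed numbers was added after the data were seen.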

Additional observations from a re-analysis of the deposited data

How the results depend on the processing

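The 17 members called higher and 1 called lower by limma became 29 and 1 with equal totals, where the median of all genes moved to 0.34 and that of the members to 0.92, a distance of 0.58 as before. Without the mean-variance trend they became 5 and 0, with 1 member lower at an unadjusted p under 0.05, and after GC removal 13 and 0. Leaving out each library gave 5 to 20 higher and 1 to 2 lower. A pseudocount of 5, no filter, the replicate block (14 higher), the block with crossed numbers (21 higher) and an adjusted p under 0.1 each gave 2 lower, Mrpl28 being the second in each. The members' median ran from 0.40 to 0.82 over the left-out libraries. The Mrps minus Mrpl difference of medians was 0.0378 with the GC trend removed and ran from −0.19 to 0.16 over the left-out libraries, so that its sign changed. The other settings kept the counts within 1.5 times and the medians within the spread between libraries, and DESeq2 and edgeR called 15 and 20 higher and 1 lower each. Among them, a mean value of at least 20 brought the Mrps minus Mrpl difference to −0.05. The causes of these shifts were not tested. Depth limited Mrpl1, Mrpl11, Mrpl15 and Mrpl35 among others, and 2 libraries per group limit all p-values.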

Other observations

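Some members have an annotated start of another gene close by on the opposite strand. Such a start, within 1000 bases on either side, was annotated in GENCODE M21 for 17 of the 46 members (37%). It was annotated for 739 of 4600 tested genes with coordinates (16.1%). Of the 17 neighbours 9 were tested here, and whether they share a promoter with the member was not tested. Except for Klc4, each tested neighbour had a log2 fold change of the same sign as that of its member. In no pair did both genes pass the threshold in the same direction. Klc4, a kinesin light chain gene next to Mrpl2, had 210 and 137 normalised counts in knockdown libraries, against 527 and 594 in control libraries (log2 fold change −1.72, limma adjusted p = 2.03e-05), while Mrpl2 rose. Apba3, next to Mrpl54, had 367 and 410 in knockdown libraries, against 763 and 718 in control libraries (−0.93, limma adjusted p = 0.00186). Mitd1, next to Mrpl30, had 25.8 and 27.8 in knockdown libraries, against 6.89 and 4.87 in control libraries (2.03, limma adjusted p = 0.00552), and the groups of Mrpl30 itself overlapped (0.38). Tmem63b, next to Mrpl14, had 463 and 483 in knockdown libraries, against 664 and 632 in control libraries (−0.45, limma adjusted p = 0.0958). The other 5 neighbours, Mtbp, Tcp1, Eme1, Hira and Helq, did not pass, and their log2 fold changes were between 0.10 and 0.83. These genes were chosen after their values were seen.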
